A study of Mus musculus with 14 samples.

Results

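Diabetes and the loss of complement factor B were combined in 4 groups of mice, and the kidney response to diabetes was compared between the genotypes gene by gene. The comparison used all 14 sequenced mice, and it covered the 11962 of 21878 genes whose FPKM (fragments per kilobase of transcript, scaled to the fragments of the library) was at least 1 in 3 or more mice. The value compared was the diabetes response in *Cfb*-/- mice minus the diabetes response in WT mice on the log2(FPKM + 0.1) scale, so that a negative difference means a smaller rise or a larger fall without *Cfb*. Every mouse was a male on the C57BL/6J background. The 4 *Cfb*-/- diabetic mice and the 4 WT diabetic mice had eaten a diet with 60% of its calories from fat for 4 weeks and had then received streptozotocin (STZ, a toxin of pancreatic beta cells) at 60 mg/kg on 5 days. The 3 *Cfb*-/- control mice and the 3 WT control mice had eaten chow with 10% of its calories from fat and had received the citrate buffer alone. Diet and STZ therefore changed together, and the response to diabetes cannot be told apart from the response to the diet or to the toxin. Per the study's methods the mice were 8 weeks old at the start and were killed 21 weeks after STZ. The labels gave 34 weeks for every mouse without saying from when, gave the control mice the same treatment wording as the diabetic mice, and described the knockout as a knockdown, so the titles of the samples set the groups.

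Complement factor B is the serine protease of the alternative pathway of complement. It binds C3b, is cut by factor D, and forms the C3 convertase that amplifies C3 cleavage, so complement started by any route passes in part through it. In the diabetic kidney, tubule cells lose transport and metabolic functions, take on an injured state, and are surrounded by leukocytes and matrix, while interferon and p53 programs are often active.

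The libraries were those of kidney. Uromodulin (*Umod*) lay between 383 and 1500 FPKM in the 14 mice and *Slc34a1*, the phosphate transporter of the proximal tubule, between 466 and 2017 FPKM. *Aqp2* and *Slc12a3*, which mark collecting duct and distal tubule, were detected in every mouse. The sum of FPKM was 330246 to 488196 per mouse, and the androgen-regulated transcript *Kap* alone made up 1.98% to 4.60% of it in diabetic mice and 10.2% to 13.9% in control mice. The number of reads was unknown. Correlations of log2 values within a group were 0.973 to 0.990. WT control mouse 1 stood closer to the *Cfb*-/- control mice (0.982 to 0.987) than to the other WT control mice (0.973 and 0.980), and the main counts over all genes are given with and without it.

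*Cfb* itself matched the labels in all mice. Its FPKM was 131, 62.2 and 126 in WT control mice and 78.8, 81.9, 72.7 and 56.7 in WT diabetic mice. In *Cfb*-/- mice it was 2.20, 2.22 and 2.05 in controls and 1.38, 1.43, 1.13 and 1.42 in diabetic mice. The genotypes did not overlap, and the log2 difference was -5.48 in control mice (SE 0.23, limma adjusted p = 7.59e-09) and -5.65 in diabetic mice (SE 0.20, limma adjusted p = 6.77e-10). *Cfb* was still listed above 1 FPKM in every knockout mouse.

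Large parts of the response to diabetes were shared. P-values here measure the spread between these mice. In WT mice 4220 genes rose (35.3% of those tested) and 1428 fell (11.9%) at a limma adjusted p under 0.05, and in *Cfb*-/- mice 3095 rose (25.9%) and 887 fell (7.42%). Of these, 3284 genes (27.5%) changed the same way in both genotypes, 2605 upward and 679 downward, and 4 changed in opposite directions. The responses share no mouse, and across genes they were related with Pearson's r of 0.842 and Spearman's rho of 0.827, given as a description because genes are not independent replicates. Over all genes the median response was 0.22 for WT and 0.17 for *Cfb*-/- mice. Without WT control mouse 1, 6436 genes changed in WT mice, 4237 in *Cfb*-/- mice and 3243 the same way in both. Without WT control mouse 2 the order turned, with 3910 genes in WT and 4520 in *Cfb*-/- mice. It also turned when limma weighted the mice by quality (array weights), with 4075 and 5033. Which genotype had more changed genes therefore depended on these choices.

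A p over a threshold does not show that responses are equal, so equality was read from the interval. A response was called similar when a gene changed the same way in both genotypes and the 95% interval of the difference lay within 1 log2 unit on either side of 0, a margin of 2-fold. This held for 2415 genes (20.2% of those tested and 73.5% of those changed the same way in both), of which 1848 rose and 567 fell. The interval lay within the margin in 9295 of all tested genes (77.7%), changed or not, so the 73.5% is near the share over all genes. Without WT control mouse 1 there were 2149. With a narrower margin of 1.5-fold the count was 875. The balance of rises and falls depended on the scaling. Rises were 76.5% of the similar genes as deposited, 43.3% of 2585 after median-ratio scaling and 46.0% of 2248 after quantile normalization, with 1595 and 1361 genes shared with the 2415. In the same way, the share of rises among changed genes went from 74.7% in WT and 77.7% in *Cfb*-/- mice to 42.2% and 49.1% after median-ratio scaling. That scaling moved the median response of all genes to -0.06 and -0.07, so small responses are to be read relative to those medians.

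**Figure D1:**
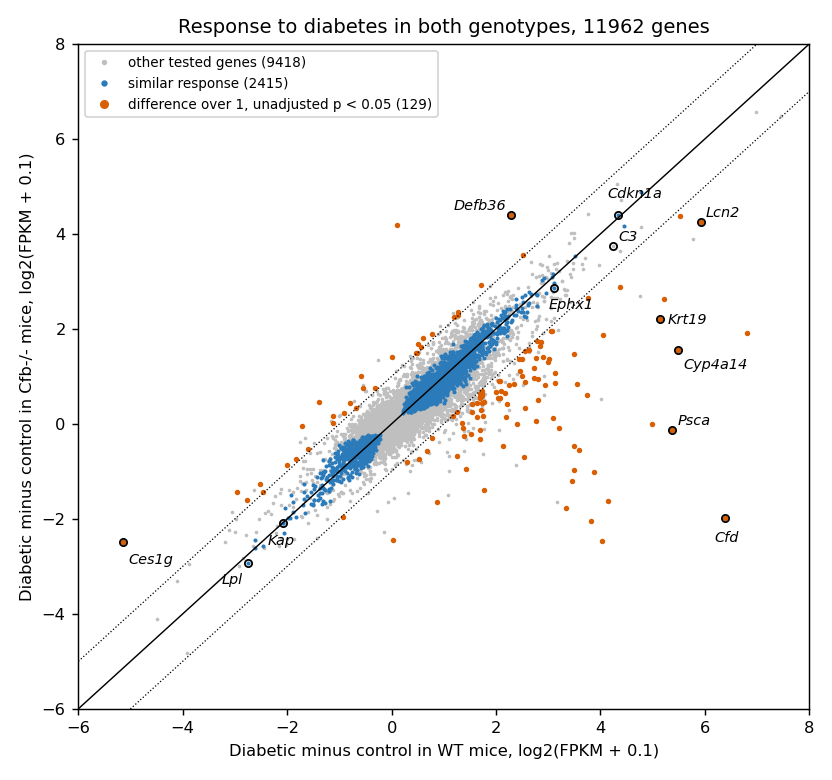
Each point is 1 of 11962 genes, with the diabetes response in WT mice on the horizontal axis and in Cfb-/- mice on the vertical axis, both as log2(FPKM + 0.1) of diabetic minus control mice. The solid line marks equal responses and the dotted lines a difference of 1 log2 unit. The 2415 similar genes lie along the line, and the 129 genes with a difference over 1 at unadjusted p under 0.05 lie mostly below it.

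Among the 10 largest similar rises was that of *Cdkn1a*, the cell cycle inhibitor p21 and a classical p53 target. It was at 6.61, 3.39 and 3.03 FPKM in WT control mice and at 97.8, 88.1, 66.6 and 88.9 in WT diabetic mice. In *Cfb*-/- mice it was at 4.00, 5.98 and 4.17 in controls and at 105, 131, 90.8 and 80.1 in diabetic mice. Diabetic and control mice were far apart in both genotypes, with a rise of 4.34 in WT and of 4.40 in *Cfb*-/- mice and a difference of 0.06 (95% interval -0.68 to 0.80). *Ephx1*, a microsomal epoxide hydrolase, was at 13.2, 13.7 and 16.1 FPKM in WT control and 110, 131, 110 and 147 in WT diabetic mice. Its values in *Cfb*-/- mice were 17.2, 13.0 and 19.6 in controls and 137, 116, 108 and 122 in diabetic mice, so that diabetic mice of both genotypes covered the same range. The difference for *Ephx1* was -0.24 (95% interval -0.68 to 0.21).

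Fibronectin, *Fn1*, the matrix glycoprotein laid down in fibrosis, was at 1.80, 1.05 and 1.57 FPKM in WT control and 17.1, 11.02, 9.81 and 10.5 in WT diabetic mice. In *Cfb*-/- mice it was at 1.74, 1.59 and 2.46 in controls and 15.6, 15.3, 10.9 and 12.4 in diabetic mice. It rose by 2.95 in WT and 2.76 in *Cfb*-/- mice, and the difference was -0.19 (95% interval -0.87 to 0.48). *Grem1*, a secreted antagonist of bone morphogenetic proteins, was at or below 0.111 FPKM in all 6 control mice and between 2.82 and 5.53 in the 8 diabetic mice. It passed the filter only through diabetic mice, so no interval is given for it. Across the alternatives of processing its mean response ran from 2.21 to 6.75, and 11 of 23 did not meet the criterion. Its rank and its place among the similar genes therefore depend on the processing. The remaining members of the 10 largest similar rises were *Eda2r*, a p53-regulated receptor of ectodysplasin A2, *Siglec1* of macrophages, the interferon-induced *Oas1a*, *Oasl2* and *Ifi204*, and the carbonyl reductase *Cbr3*. Their differences lay between -0.28 and 0.17. Across the alternatives the mean response ran from 1.97 to 5.53 for *Eda2r* and from 1.38 to 4.74 for *Siglec1*.

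Among the 10 largest similar falls was that of *Kap*, which was at 41536, 67836 and 43498 FPKM in WT control and at 9698, 9732, 16015 and 12640 in WT diabetic mice. In *Cfb*-/- mice it was at 39707, 43757 and 43149 in controls and at 6671, 11341, 12118 and 10349 in diabetic mice. The fall was 2.08 in WT and 2.10 in *Cfb*-/- mice, and the difference was -0.02 (95% interval -0.83 to 0.80). *Lpl*, lipoprotein lipase, which releases fatty acids from circulating triglyceride, was at 141, 200 and 188 FPKM in WT control and 34.6, 17.9, 28.3 and 25.1 in WT diabetic mice, and at 249, 235 and 229 in *Cfb*-/- control and 28.0, 34.7, 40.3 and 23.9 in *Cfb*-/- diabetic mice. Its response was -2.75 in WT and -2.93 in *Cfb*-/- mice, with a difference of -0.17 (95% interval -0.81 to 0.46). *Cyp4b1*, a monooxygenase of the tubule, went from 2347 to 2877 FPKM in WT controls to 284 to 521 in WT diabetic mice and from 1824 to 2406 to 246 to 500 in *Cfb*-/- mice, with a difference of 0.17 (95% interval -0.55 to 0.89). *Acy3*, the aminoacylase that deacetylates mercapturic acids, *Serpinf2*, the inhibitor of plasmin, *Hsd17b11* and *Hsd3b2*, which act on steroids, *Apoh*, *Cpne4* and the monooxygenase *Cyp2j13* were the other members of the 10 largest similar falls, and their differences lay between -0.13 and 0.26.

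**Figure D2:**
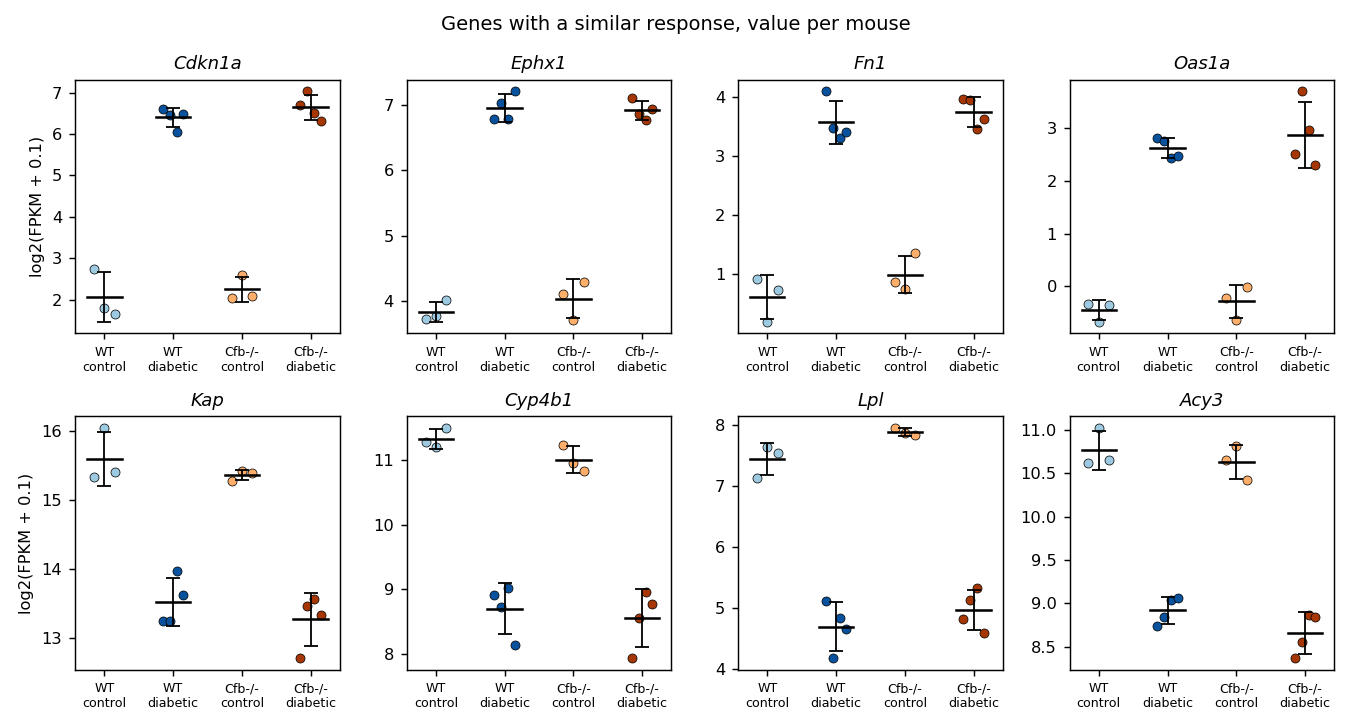
Each panel shows 1 gene with a similar response, as log2(FPKM + 0.1) on the vertical axis and the 4 groups on the horizontal axis. A point is 1 mouse, the thick line is the group mean and the bars are 1 SD, for 3 mice in each control group and 4 in each diabetic group. Diabetic and control mice are apart in all 8 panels and the genotypes overlap in their diabetic mice.

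Interferon-stimulated genes, the antiviral genes that cells switch on when interferon binds its receptor, rose without exception among those tested. Of 30 listed genes 28 were tested, and all 28 rose in WT mice and all 28 rose in *Cfb*-/- mice (35.3% and 25.9% of all genes did), as they did under both other scalings. The median response was 2.28 in WT and 2.48 in *Cfb*-/- mice, against 0.22 and 0.17 over all genes. Of the 28, 13 met the criterion of a similar response, as did 20.2% of all genes. A difference at unadjusted p under 0.05 was seen in 0 of the 28 and in 5.48% of all genes. *Isg15*, a ubiquitin-like modifier, was at 3.64, 5.62 and 3.44 FPKM in WT control and 34.9, 46.0, 33.9 and 37.5 in WT diabetic mice, and at 4.01, 3.21 and 4.61 in *Cfb*-/- control and 34.5, 87.5, 43.7 and 23.4 in *Cfb*-/- diabetic mice. *Ifit1*, which binds foreign RNA ends, was at 0.908 to 1.48 FPKM in WT control, 12.5 to 19.2 in WT diabetic, 1.10 to 1.95 in *Cfb*-/- control and 8.41 to 28.2 in *Cfb*-/- diabetic mice. *Oas1a*, which senses double-stranded RNA, was at 0.528 to 0.688, 5.33 to 6.95, 0.544 to 0.893 and 4.85 to 13.0 FPKM in the same order. In these 3 genes *Cfb*-/- diabetic mouse 2 was the highest of the 14 mice, and without it the median difference of the 28 genes turned from 0.07 to -0.15.

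Promoters of this group were read because its members moved together in both genotypes. Of the 20 tested members with a promoter sequence in RefSeq (GRCm38.p6), 11 held GAAA, any 2 bases and GAAA again, the core of the interferon-stimulated response element, on either strand in the 250 bases before the transcription start, against 299 of 9244 tested genes with a promoter (3.23%). The 3 with the largest mean response among those whose window lies outside the RefSeq span of the gene and holds no annotated GENCODE exon are shown 5′ to 3′ on the strand of the gene, with the matched bases in capitals. They are *Isg15* at chr4:156200819-156201068, the chemokine *Cxcl10* at chr5:92348890-92349139 and *Bst2*, the virus-tethering protein tetherin, at chr8:71537473-71537722, all on the minus strand. *Cxcl10* rose from 3.15 to 5.34 FPKM in the 6 control mice to 17.8 to 49.0 in the 8 diabetic mice, and *Bst2* from 12.8 to 21.9 to 63.0 to 162. The motif was chosen with these results known. A match is a description of the letters, and binding was not measured.
Isg15: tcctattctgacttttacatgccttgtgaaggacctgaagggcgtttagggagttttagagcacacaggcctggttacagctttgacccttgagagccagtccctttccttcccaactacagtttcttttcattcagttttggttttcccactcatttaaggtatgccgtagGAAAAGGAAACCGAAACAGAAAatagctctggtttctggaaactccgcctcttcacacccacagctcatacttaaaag
Cxcl10: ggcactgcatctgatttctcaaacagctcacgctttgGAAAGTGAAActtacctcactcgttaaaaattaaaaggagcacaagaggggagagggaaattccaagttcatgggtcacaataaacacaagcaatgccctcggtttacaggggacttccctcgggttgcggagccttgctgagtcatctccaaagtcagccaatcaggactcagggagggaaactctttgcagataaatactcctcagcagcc
Bst2: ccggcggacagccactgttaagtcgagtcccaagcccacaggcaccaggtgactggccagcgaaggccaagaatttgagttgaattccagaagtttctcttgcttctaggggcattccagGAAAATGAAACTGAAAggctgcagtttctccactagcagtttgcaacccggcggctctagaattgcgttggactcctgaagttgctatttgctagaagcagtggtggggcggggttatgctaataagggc

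Other lists with many rises in both genotypes were those of injury, inflammation, matrix and p53. Over all genes 35.3% rose in WT and 25.9% in *Cfb*-/- mice, and 20.2% were similar. Of 23 injured tubule genes 22 rose in each genotype, with medians of 2.25 in WT and 2.20 in *Cfb*-/- mice, and 9 were similar. Of 31 matrix and fibrosis genes 31 rose in WT and 30 in *Cfb*-/- mice (medians 1.43 and 1.59), and 18 were similar. Of 14 macrophage and dendritic cell genes 14 and 13 rose (medians 2.05 and 2.39), of 18 genes of MHC and antigen presentation 17 and 18 rose (1.21 and 1.49), of 22 chemokine genes 19 and 20 rose (1.46 and 1.77), and of 20 NF-κB targets 17 and 17 rose (1.16 and 1.45). Of 17 genes of cell cycle and mitosis 14 rose in WT and 15 in *Cfb*-/- mice, with medians of 1.66 and 1.60. In bulk tissue more cells of a type and more RNA per cell cannot be told apart. The 3 defining macrophage markers *Adgre1*, *Csf1r* and *C1qa* summed to 23.8 to 32.4 FPKM in WT control, 64.1 to 95.7 in WT diabetic, 21.5 to 32.3 in *Cfb*-/- control and 63.3 to 106 in *Cfb*-/- diabetic mice, so the ranges of the genotypes overlapped in each condition.

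The proximal tubule and the androgen-responsive genes of the male kidney went down in both genotypes. Of 20 proximal tubule genes 14 fell in WT and 16 in *Cfb*-/- mice (medians -1.08 and -1.22), against 11.9% and 7.42% of all genes, 0 rose, and 7 were similar. *Slc5a2*, the glucose transporter SGLT2, was at 223, 244 and 313 FPKM in WT control and 47.5, 44.7, 27.6 and 18.7 in WT diabetic mice, and at 161, 180 and 130 in *Cfb*-/- control and 13.1, 75.3, 82.4 and 27.5 in *Cfb*-/- diabetic mice. It fell in both genotypes, and the interval of the difference, -0.56 to 2.53, was too wide to call the responses similar. Of 11 androgen-responsive genes 7 fell and 1, the transporter *Abcc3*, rose in each genotype, with medians of -1.13 and -1.14. *Slco1a1*, an organic anion transporter, was at 58.9 to 96.5 FPKM in WT control and 2.77 to 9.14 in WT diabetic mice, and at 66.3 to 97.5 in *Cfb*-/- control and 0.827 to 7.13 in *Cfb*-/- diabetic mice.

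**Figure D3:**
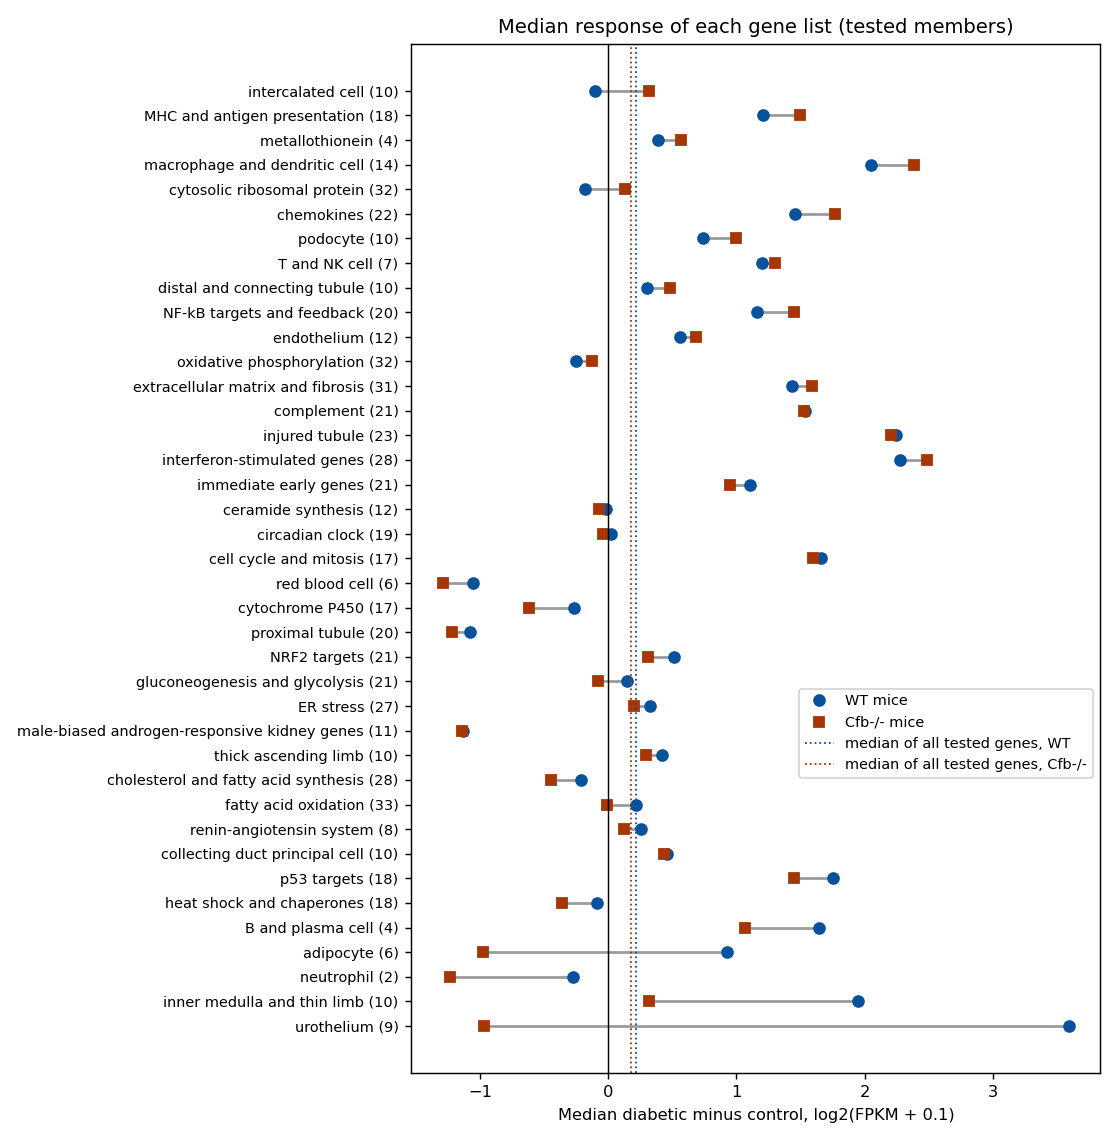
Each row is 1 gene list with its number of tested members, and the horizontal axis is the median diabetes response of those members on the log2(FPKM + 0.1) scale. Circles are WT mice, squares Cfb-/- mice, the line joins both, and the dotted lines are the medians of all tested genes, 0.22 and 0.17. Most pairs lie close together, and the urothelium, inner medulla and adipocyte lists at the bottom are far apart. Some urothelium and adipocyte members passed the filter only through the mice in which they were high.

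No gene had a difference in response at a limma adjusted p under 0.05, and the smallest adjusted p of 11962 genes was 0.738. At an unadjusted p under 0.05 there were 655 genes (5.48%), a share close to the threshold itself, with 365 higher (3.05%) and 290 lower (2.42%) in *Cfb*-/- mice. A further requirement of a difference over 1 in log2 left 129 genes (1.08%), 32 higher and 97 lower, and the split was 36 and 54 after quantile normalization. Of the 129, the WT rise was the larger response in 92, the *Cfb*-/- fall in 5, the *Cfb*-/- rise in 17 and the WT fall in 15, and in 38 the estimates had opposite signs. Differences described as larger in a genotype were therefore not called, and each is given with its interval. Without WT control mouse 1 the 655 became 2386 and the 129 became 258, and still 0 passed the adjustment. Genes described next for a small p were picked on the same contrast, so their intervals and permutation p describe them and are no independent test.

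The genotypes were further apart in control than in diabetic mice. At an unadjusted p under 0.05, 2384 genes (19.9%) differed by genotype in control mice and 306 (2.56%) in diabetic mice, and at a limma adjusted p under 0.05 *Cfb* alone (0.00836%) did in each. The difference in control mice was the larger in 74.2% of all genes, and in 573 of the 655 (87.5%) and 102 of the 129. Control groups had 3 mice and diabetic groups 4, and the median standard error was 0.175 in control and 0.151 in diabetic mice. WT control mouse 1 bears on this, since without it 2107 genes passed the adjusted threshold between control genotypes and the larger control difference was seen in 80.1% of all genes. Without WT control mouse 2, 857 genes differed in control mice at an unadjusted p under 0.05 and the share was 64.9%, and without *Cfb*-/- control mouse 3 the figures were 901 genes and 70.8%.

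**Figure D4:**
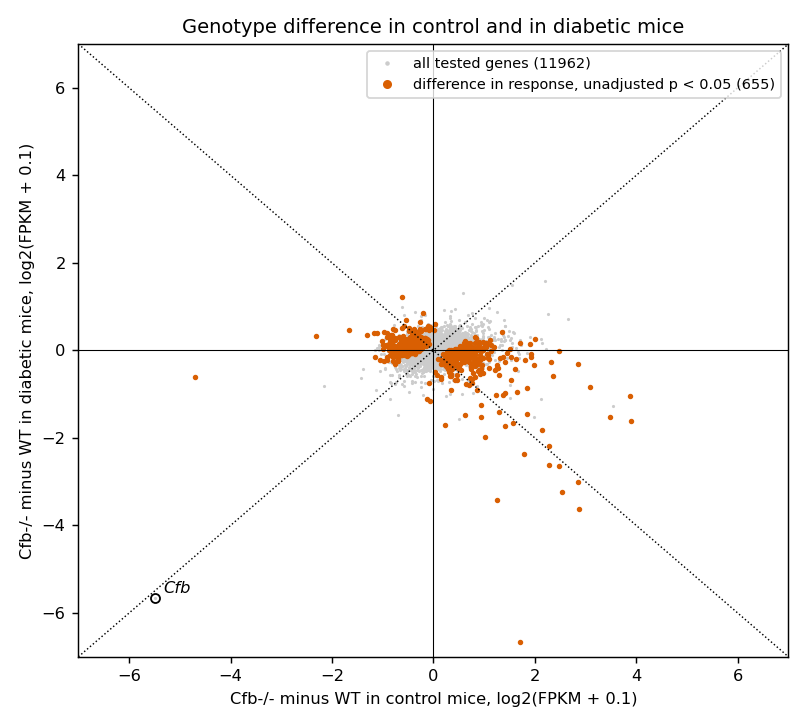
Each point is 1 of 11962 genes, with the genotype difference (Cfb-/- minus WT) in control mice on the horizontal axis and in diabetic mice on the vertical axis, on the log2(FPKM + 0.1) scale. Dotted diagonals mark differences of equal size. The 655 genes with a difference in response at unadjusted p under 0.05 spread along the horizontal axis, and in 573 of them the control difference is the larger.

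Some genes of fatty acid oxidation under the nuclear receptor PPARα had a larger estimated rise in WT mice. *Cyp4a14*, a fatty acid omega-hydroxylase and a standard PPARα target, was at 10.5, 4.97 and 1.76 FPKM in WT control and at 154, 211, 228 and 250 in WT diabetic mice. In *Cfb*-/- mice it was at 13.4, 96.3 and 47.0 in controls and at 94.8, 72.3, 194 and 137 in diabetic mice. Diabetic and control mice did not overlap in WT and overlapped in *Cfb*-/- mice. The gene rose by 5.48 in WT (SE 0.60, limma adjusted p = 1.7e-05), the *Cfb*-/- estimate was 1.56 (SE 0.60, limma adjusted p = 0.061), and the difference was -3.92 (95% interval -5.75 to -2.09, exact two-sided permutation p = 0.00286 from 1400 assignments that exchanged genotype among diabetic and among control mice separately, for which 0.00143 is the smallest possible value).

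Its neighbour in function *Cyp4a10* was at 154, 141 and 69.9 FPKM in WT control and 303, 405, 471 and 406 in WT diabetic mice, and at 141, 260 and 213 in *Cfb*-/- control and 248, 210, 340 and 309 in *Cfb*-/- diabetic mice. Only in WT mice were control and diabetic values apart, and the difference in response was -1.31 (95% interval -2.14 to -0.48, exact permutation p = 0.0129). *Pdk4*, which shuts glucose carbon out of the mitochondrion, rose in both genotypes, by 2.46 in WT and 1.12 in *Cfb*-/- mice, from 3.76 to 4.21 FPKM to 19.99 to 27.7 in WT and from 4.35 to 11.4 to 11.9 to 20.3 in *Cfb*-/- mice. Its difference was -1.34 (95% interval -2.12 to -0.57, exact permutation p = 0.00286).

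Over the whole list of 33 tested genes of fatty acid oxidation, 14 rose and 4 fell in WT mice and 8 rose and 4 fell in *Cfb*-/- mice. These shares were near those of all genes, of which 35.3% rose and 11.9% fell in WT and 25.9% rose and 7.42% fell in *Cfb*-/- mice. The falls in *Cfb*-/- mice numbered 1 without *Cfb*-/- diabetic mouse 1 or 2 or *Cfb*-/- control mouse 1 or 3, and those in WT mice 2 without WT control mouse 2. The difference was negative in 26 of 33, against 50.7% of all genes, with a median of -0.23, and in 25 and 29 of 33 under the other scalings. At an unadjusted p under 0.05 it was negative in 5 and positive in 1, against 2.42% and 3.05% of all genes. The 5 became 8 without *Cfb*-/- diabetic mouse 3 or 4 or WT control mouse 1, and 9 without *Cfb*-/- control mouse 2.

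**Figure D5:**
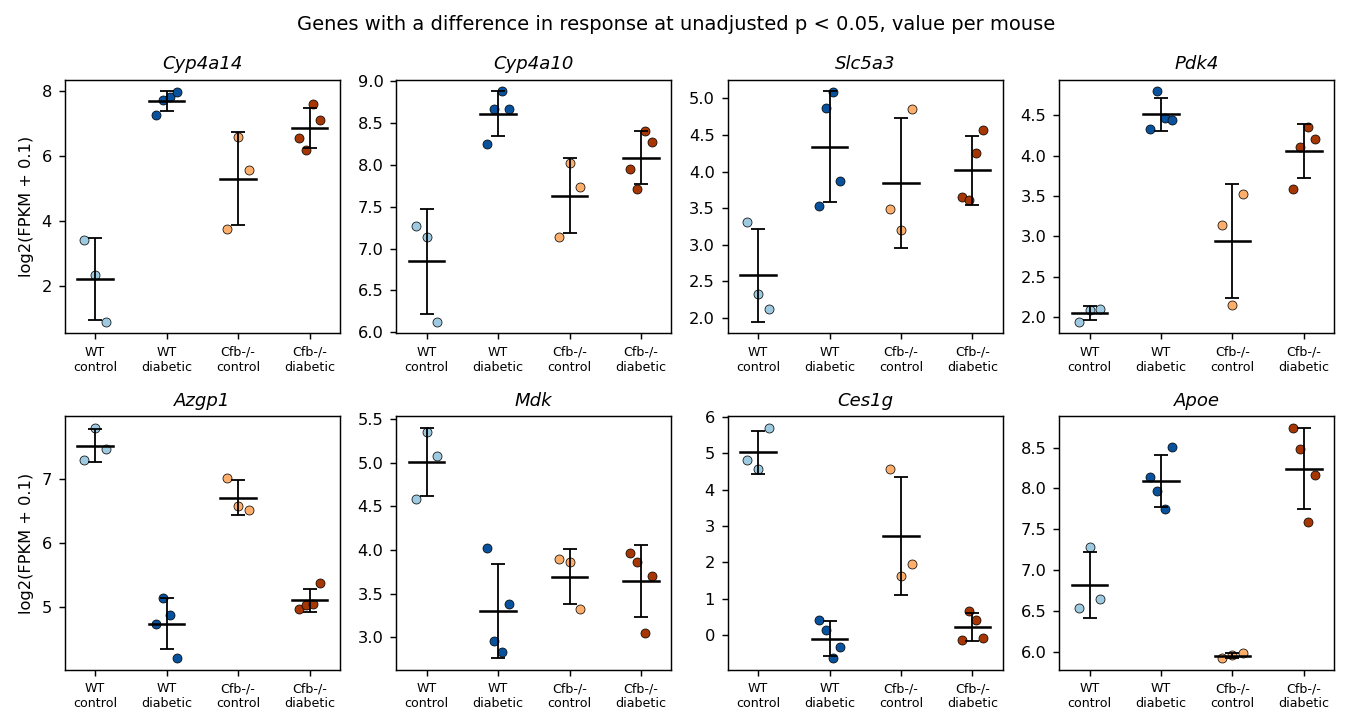
Each panel shows 1 gene with a difference in response at unadjusted p under 0.05, as log2(FPKM + 0.1) on the vertical axis and the 4 groups on the horizontal axis. A point is 1 mouse, the thick line is the group mean and the bars are 1 SD, for 3 mice in each control group and 4 in each diabetic group. In all 8 panels the means of the control groups lie further apart than those of the diabetic groups, which held for 573 of the 655 genes with such a difference and not for the others.

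Markers of the urothelium, the lining of the renal pelvis, were high in some of the WT diabetic and *Cfb*-/- control mice. The 9 tested of 14 listed genes all rose in WT mice and 0 changed in *Cfb*-/- mice, with medians of 3.59 and -0.96. After quantile normalization 4 of the 9 rose in WT mice. Some of these genes passed the filter on low values only through the mice in which they were high, so the count and medians describe the 9, not the list, and support nothing. *Upk2*, a uroplakin, was listed at 0.0720, 0 and 0 FPKM in WT control, 0, 6.16, 8.59 and 2.58 in WT diabetic, 2.22, 0.0651 and 1.66 in *Cfb*-/- control and 0.0642, 0, 0.0642 and 0.136 in *Cfb*-/- diabetic mice. *Psca*, a surface protein of urothelium, was at 0.0652, 0.431 and 0.354 FPKM, at 3.10, 51.3, 26.8 and 8.90, at 13.4, 0.704 and 11.9 and at 8.76, 3.64, 2.65 and 4.98 in the same order. Thus WT diabetic mice 2, 3 and 4 and *Cfb*-/- control mice 1 and 3 were high, and the remaining mice of those groups were not. The summed FPKM of the 14 genes was 0.712 to 1.55 in WT control mice, 4.21, 99.6, 87.5 and 29.5 in WT diabetic mice, 26.3, 1.68 and 26.4 in *Cfb*-/- control mice and 5.16 to 11.9 in *Cfb*-/- diabetic mice. *Krt19*, *Fxyd3* and *Sprr1a*, epithelial genes with differences of -2.94, -4.99 and -4.90, also had their lowest WT diabetic value in mouse 1 and their lowest *Cfb*-/- control value in mouse 2. The part of the urothelium in these differences was not tested.

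The inner medulla and thin limb list moved with it. Of its 10 genes 7 rose in WT and 2 in *Cfb*-/- mice, where 35.3% and 25.9% of all genes did. The medians were 1.95 and 0.32, and the difference was negative in 9, as it was in 50.7% of all genes. *Slc14a1*, a urea transporter, was at 0.0552 to 0.389 FPKM in WT control mice, at 0.215, 3.30, 2.99 and 0.718 in WT diabetic mice, at 0.765, 0.351 and 1.86 in *Cfb*-/- control mice and at 0.288 to 1.24 in *Cfb*-/- diabetic mice, so the same WT diabetic mouse 1 and *Cfb*-/- control mouse 2 were the lowest of their groups. *Slc5a3*, the osmolyte transporter of inositol, ranked the mice in a like way, with 11.4, 29.0, 34.0 and 14.6 FPKM in WT diabetic and 11.1, 9.06 and 28.9 in *Cfb*-/- control mice, and a difference of -1.58 (95% interval -2.94 to -0.23, exact permutation p = 0.07). *Sptssb*, a subunit of serine palmitoyltransferase that starts ceramide synthesis, was at 0, 8.99, 6.11 and 0.851 FPKM in WT diabetic and 2.26, 0 and 1.86 in *Cfb*-/- control mice, again with WT diabetic mouse 1 and *Cfb*-/- control mouse 2 lowest. Of the 12 tested ceramide synthesis genes 4 rose and 2 fell in WT and 3 rose and 1 fell in *Cfb*-/- mice, with medians of -0.02 and -0.07. Over all genes 35.3% rose and 11.9% fell in WT, and 25.9% rose and 7.42% fell in *Cfb*-/- mice. *Sptssb* was the 1 member with a difference at unadjusted p under 0.05. The high WT diabetic mice 2 and 3 and *Cfb*-/- control mice 1 and 3 carried it past the filter on low values, so this is no support for a difference.

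Of 12 listed adipocyte genes 6 were tested, of which 3 rose and 1 fell in WT mice and 1 rose and 1 fell in *Cfb*-/- mice. Over all genes 35.3% rose and 11.9% fell in WT, and 25.9% rose and 7.42% fell in *Cfb*-/- mice. The 6 include *Cfd* and *Adipoq*, which passed the filter through high mice as given below. Their counts therefore describe the 6, not the list, and support nothing. The summed FPKM of the 12 overlapped between the genotypes, at 471 to 737 in WT diabetic, 474 to 714 in WT control, 582 to 969 in *Cfb*-/- control and 223 to 487 in *Cfb*-/- diabetic mice, and most of it was *Pck1* and *Lpl*, which the kidney also expresses. The markers most particular to fat cells differed from this sum. *Cfd*, adipsin, the protease that cuts factor B and a product of fat cells, was listed at 0, 0.0755 and 0 FPKM in WT control, at 9.39, 5.56, 25.5 and 7.44 in WT diabetic, at 6.01, 0 and 0 in *Cfb*-/- control and at 0 in all 4 *Cfb*-/- diabetic mice. *Adipoq*, adiponectin, was at 0.623, 1.02, 3.72 and 0.649 FPKM in WT diabetic mice and at 1.82 in *Cfb*-/- control mouse 1, and no other mouse was above 0.0408. *Cfd*, *Adipoq* and the other defining markers *Plin1*, *Cidec* and *Lep* summed to 7.02 to 30.7 FPKM in WT diabetic mice, 0 to 0.145 in WT control, 0 to 9.44 in *Cfb*-/- control and 0.102 to 0.386 in *Cfb*-/- diabetic mice, and *Cfd*, *Plin1* and *Lep* were listed at 0 in all *Cfb*-/- diabetic mice. *Cfd* and *Adipoq* passed the filter on low values only through the mice in which they were high, so no test is given for them. No fold is given for *Cfd*, because a group was listed at 0. The fitted values of *Cfd* and *Adipoq* listed further on depend on the processing. The part of adipose tissue in this difference was not tested.

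Some broadly expressed genes also had a larger WT rise. *Ccng1*, cyclin G1 and a p53 target, was at 53.1, 36.2 and 37.1 FPKM in WT control, 139, 160, 117 and 144 in WT diabetic, 66.3, 75.6 and 76.4 in *Cfb*-/- control and 133, 118, 161 and 153 in *Cfb*-/- diabetic mice. It rose by 1.75 in WT and 0.95 in *Cfb*-/- mice, and the genotypes met in the diabetic mice, with a difference of 0.01 there and 0.81 in control mice. The difference in response was -0.80 (95% interval -1.25 to -0.34, exact permutation p = 0.0614). Of 18 p53 targets 17 rose in each genotype (35.3% and 25.9% of all genes did), with medians of 1.75 and 1.45. Of these targets 10 were similar, as were 20.2% of all genes, and 13 had a negative difference, as did 50.7% of all genes. At an unadjusted p under 0.05 it was negative in 2 of the 18, against 2.42% of all genes. The 2 became 7 without WT control mouse 1 and 4 without *Cfb*-/- control mouse 1.

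*Havcr1*, the tubule injury marker KIM-1, was at 0.281, 0.731 and 0.189 FPKM in WT control and 0.596, 1.37 and 0.847 in *Cfb*-/- control mice, and at 23.4, 16.2, 19.9 and 24.4 in WT diabetic and 22.1, 28.9, 15.7 and 17.4 in *Cfb*-/- diabetic mice. Here too the diabetic mice overlapped, and the difference in response of -1.16 (95% interval -2.16 to -0.15, exact permutation p = 0.15) went with a genotype difference of 1.14 in control and -0.02 in diabetic mice. *Lcn2*, the siderophore-binding protein NGAL, gave -1.67 (95% interval -2.96 to -0.37, exact permutation p = 0.0486), with 0.636 to 1.17 FPKM in WT control and 1.51 to 2.98 in *Cfb*-/- control mice and with overlapping diabetic mice at 38.8 to 88.2 and 21.3 to 94.5. In the matrix list *Postn*, periostin, and *Lum*, a keratan sulfate proteoglycan, had a larger WT rise, and *Ctgf*, the connective tissue growth factor, a larger *Cfb*-/- rise. *Postn* was at 0.0629 to 0.194 FPKM in WT control, 1.11, 1.83, 3.20 and 1.90 in WT diabetic, 0.238 to 0.676 in *Cfb*-/- control and 0.449 to 1.18 in *Cfb*-/- diabetic mice, with a difference of -2.25. No control mouse and every WT diabetic mouse reached the filter of 1 FPKM, so no test is given for it. Across the alternatives its difference ran from -2.83 to -0.98. *Ctgf* was at 28.7 to 40.9 FPKM in WT control, 69.6 to 81.7 in WT diabetic, 19.1 to 29.9 in *Cfb*-/- control and 74.6 to 101 in *Cfb*-/- diabetic mice, with a difference of 0.70 (95% interval 0.22 to 1.18, exact permutation p = 0.0143).

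Among chaperones, 16 of 18 genes had a negative difference, against 50.7% of all genes, with a median of -0.41. The inducible HSP70 gene *Hspa1b* was at 4.55 to 7.69 FPKM in WT control and 10.95 to 33.9 in WT diabetic mice, and at 7.12, 161 and 60.3 in *Cfb*-/- control and 10.6 to 18.5 in *Cfb*-/- diabetic mice. *Cfb*-/- control mice 2 and 3 were the highest of all 14 mice, and *Fos*, an immediate early gene, was also highest in *Cfb*-/- control mouse 2, at 18.0 FPKM against 0.660 and 2.44 in the other *Cfb*-/- controls. The difference for *Hspa1b* was -3.16 (95% interval -5.40 to -0.92, exact permutation p = 0.0643), and without *Cfb*-/- control mouse 2 the median of the list was -0.13. *Hspa1a* and *Hspa1b* are near-identical copies, and reads could be split between them.

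The 32 genes of the 129 with a positive difference had a larger rise in *Cfb*-/- or a larger fall in WT mice. *Azgp1*, a zinc-binding lipid-mobilizing glycoprotein, was at 157, 221 and 176 FPKM in WT control and 26.8, 35.3, 29.4 and 18.4 in WT diabetic mice, and at 129, 95.1 and 91.6 in *Cfb*-/- control and 31.5, 32.6, 32.9 and 41.5 in *Cfb*-/- diabetic mice. It fell by 2.77 in WT and by 1.59 in *Cfb*-/- mice, and the control genotypes did not overlap. The difference was 1.17 (95% interval 0.57 to 1.77, exact permutation p = 0.00857). *Mdk*, the heparin-binding cytokine midkine, was at 23.9, 40.9 and 33.7 FPKM in WT control and 16.2, 7.67, 7.02 and 10.3 in WT diabetic mice, and at 14.8, 14.4 and 9.96 in *Cfb*-/- control and 15.6, 14.5, 8.17 and 12.9 in *Cfb*-/- diabetic mice. It fell by 1.71 in WT, the *Cfb*-/- estimate was -0.05 (limma adjusted p = 0.92), and the difference was 1.66 (95% interval 0.79 to 2.53, exact permutation p = 0.02).

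*Ces1g*, a carboxylesterase, was at 28.1, 23.7 and 51.8 FPKM in WT control and 0.541 to 1.24 in WT diabetic mice, and at 23.8, 2.95 and 3.75 in *Cfb*-/- control and 0.810 to 1.49 in *Cfb*-/- diabetic mice. It fell in both genotypes, by 5.14 and 2.498, and *Cfb*-/- control mouse 1 stood at the WT level. The difference was 2.64 (95% interval 0.97 to 4.30, exact permutation p = 0.0443), and it was 3.57 without that mouse. *Apoe*, the lipoprotein of cholesterol transport, was at 92.4, 155 and 99.7 FPKM in WT control and 283, 251, 215 and 362 in WT diabetic mice, and at 60.4, 61.9 and 63.0 in *Cfb*-/- control and 427, 358, 192 and 287 in *Cfb*-/- diabetic mice. It rose by 1.27 in WT and 2.29 in *Cfb*-/- mice, with overlapping diabetic mice and control mice that did not overlap, and the difference was 1.02 (95% interval 0.27 to 1.77, exact permutation p = 0.0429). *Defb36*, a beta-defensin, was listed at 0.209 to 0.226 FPKM in WT control and at 0 in all *Cfb*-/- control mice, and at 0.828 to 3.14 and 1.18 to 3.50 in WT and *Cfb*-/- diabetic mice. It passed the filter only through diabetic mice. Its difference ran from 0.58 to 4.98 across the alternatives, so its size depends on the processing and no test is given here. *C1qtnf2*, *Klhdc9*, *Scimp*, *Spns3*, *Tsacc*, *Slamf9*, *Cfi* and *Rasd1* were the others among the 12 with the smallest p in this direction, with differences between 1.01 and 1.58.

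Immune genes of antigen presentation leaned the same way. In the MHC list 16 of 18 differences were positive, where 50.7% of all genes had a negative one, with a median of 0.38. Of the 18, 2 (*H2-T23* and the immunoproteasome subunit *Psmb9*) were positive at an unadjusted p under 0.05, against 3.05% of all genes. The 2 became 6 without WT control mouse 1 and 5 without *Cfb*-/- diabetic mouse 3 or WT diabetic mouse 4. *Psmb9* was at 3.76 to 5.42 FPKM in WT control, 7.11 to 10.6 in WT diabetic, 3.18 to 3.62 in *Cfb*-/- control and 6.53 to 13.9 in *Cfb*-/- diabetic mice. The B and plasma cell list went the other way, with negative differences in all 4 tested genes, and *Jchain*, the joining chain of secreted IgA and IgM, was at 33.9, 18.9, 69.9 and 48.3 FPKM in WT diabetic and 21.4, 12.8, 5.10 and 47.8 in *Cfb*-/- diabetic mice, against 0.737 to 5.81 in control mice. Its difference was -2.19 (95% interval -4.23 to -0.15, exact permutation p = 0.0543). All 32 cytosolic ribosomal protein genes had a positive difference, under both other scalings too, with a median of 0.33, or 30 of 32 with a median of 0.14 without WT control mouse 2. The direction of their responses depended on scaling: of the 32, 1 fell in WT and 0 changed in *Cfb*-/- mice as deposited, 11 fell in WT after median-ratio scaling, and 18 rose in *Cfb*-/- mice after quantile normalization. The number of ribosomal differences at an unadjusted p under 0.05 was 1 of 32, near the 3.05% of all genes with a positive one. It was 25 without WT control mouse 1.

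Within complement, 17 of 21 tested genes rose and 1 fell in each genotype, against 35.3% and 25.9% of all genes that rose, and the medians were 1.53 in WT and 1.52 in *Cfb*-/- mice. *C3*, the central component that factor B helps to cleave, was at 2.03, 2.19 and 1.64 FPKM in WT control and 35.6, 33.7, 40.01 and 44.8 in WT diabetic mice, and at 2.15, 1.91 and 3.10 in *Cfb*-/- control and 38.3, 25.5, 26.5 and 43.6 in *Cfb*-/- diabetic mice. It rose by 4.23 and 3.75, and the interval of the difference, -1.102 to 0.12, reached past the margin of similarity. *Cfi*, factor I, which inactivates C3b, was at 2.44 to 2.998 FPKM in WT control, 2.54 to 5.27 in WT diabetic, 0.982 to 1.84 in *Cfb*-/- control and 3.83 to 4.87 in *Cfb*-/- diabetic mice. Its difference was 1.01 (95% interval 0.30 to 1.72, exact permutation p = 0.0286), and the rise passed the adjusted threshold in *Cfb*-/- mice (1.49, limma adjusted p = 0.00025) and not in WT mice (0.48, limma adjusted p = 0.10). *C5ar1*, the receptor of C5a, rose by 2.23 in WT and 1.98 in *Cfb*-/- mice.

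*C2*, the classical pathway counterpart of factor B, is 1 of the 4 genes that changed in opposite directions, with *Dio1*, *Tusc1* and *Wash1*. It lies beside *Cfb*, at positions 34862602 to 34882100 of chromosome 17 (GRCm38.p6), where *Cfb* spans 34856374 to 34862514. *C2* was at 16.9, 19.1 and 18.8 FPKM in WT control and 17.2, 13.2, 11.1 and 13.9 in WT diabetic mice, and at 13.9, 11.5 and 12.3 in *Cfb*-/- control and 14.2, 18.4, 15.9 and 17.2 in *Cfb*-/- diabetic mice. It fell by 0.41 in WT mice (limma adjusted p = 0.024) and rose by 0.39 in *Cfb*-/- mice (limma adjusted p = 0.043), with a difference of 0.80 (95% interval 0.38 to 1.21, exact permutation p = 0.00857). *C4b*, also in this region, had a difference of 0.70 (95% interval 0.08 to 1.32), and 9 of the 10 tested neighbours of *Cfb* had a positive difference (50.7% of all genes had a negative one), 8 of 10 after quantile normalization.

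*Dio1*, the deiodinase that activates thyroid hormone, was at 4.92, 6.63 and 4.75 FPKM in WT control and 6.75, 8.38, 9.30 and 10.5 in WT diabetic mice, and at 8.44, 11.9 and 14.6 in *Cfb*-/- control and 6.55, 9.35, 8.22 and 6.60 in *Cfb*-/- diabetic mice. It rose by 0.67 in WT and fell by 0.58 in *Cfb*-/- mice, with control genotypes apart and diabetic genotypes overlapping, and the difference was -1.25 (95% interval -1.86 to -0.64, exact permutation p = 0.0157). *Tusc1* was at 5.87 to 7.12 FPKM in WT control, 4.26 to 5.67 in WT diabetic, 4.44 to 4.96 in *Cfb*-/- control and 5.70 to 6.75 in *Cfb*-/- diabetic mice, and its genotypes did not overlap in either condition. Its difference of 0.75 (95% interval 0.39 to 1.10) had an exact permutation p of 0.00143, the smallest that this design can give.

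Of 22 genes named by the study 17 were tested, 11 rose in WT and 9 in *Cfb*-/- mice (35.3% and 25.9% of all genes did), 1 (*Cfb* itself) fell in *Cfb*-/- mice, and 0 had a difference in response at an unadjusted p under 0.05, as 5.48% of all genes did. The study chose some of them knowing these mice, so they are no independent evidence. Its mouse comparisons were largely of *Cfb*-/- with WT diabetic mice, by RT-qPCR of cortex and by its own test of these sequenced mice. From the latter it reported genes of ceramide biosynthesis as lower in *Cfb*-/- diabetic mice. That is another contrast, in part by another assay, on which the 0 does not bear. *Tgfb1* rose by 1.03 in WT and 1.47 in *Cfb*-/- mice and was similar by the criterion, with a difference of 0.44 (95% interval -0.06 to 0.94). *Ccl2*, the monocyte chemoattractant, rose by 2.67 and 3.42, with a difference of 0.75 (95% interval -0.37 to 1.86). Of the ceramide synthases, *Cers4* rose in both genotypes (difference -0.31, 95% interval -0.90 to 0.27), and *Cers2*, *Cers5* and *Cers6* had differences of 0.02, -0.12 and -0.34. No difference is given here for *Cers1* or *Cers3*, which the study also measured. The values of the other ceramide synthases do not bear on them. Of ER stress and oxidative stress genes, *Xbp1*, *Atf6*, *Hspa5* and *Ddit3* had differences between -0.46 and -0.02, and *Nfe2l2* rose by 0.54 in each genotype.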

How the data were processed

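Kidney RNA of 14 mice was sequenced by the study (TruSeq stranded mRNA libraries, paired ends), and 1 table per mouse was deposited. The labels' processing notes name Trimmomatic, HISAT2, Cufflinks, HTSeq and DESeq and the build GRCm38.p6, without versions. The deposited values were read as FPKM made by the authors, a unit the labels do not state: values are not whole, and the tenth percentile of low values fell from 0.0255 among the shortest to 0.00658 among the longest transcripts. Reads per library were unknown, so no counting interval is given, and the count test of the study's methods could not be used.

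Genes with FPKM of at least 1 in 3 or more mice were tested on log2(FPKM + 0.1), which understates the change of low genes. A group-means model over all 14 mice was fitted with limma 3.58.1 (R 4.3.3) with a mean-variance trend, and p-values were adjusted by Benjamini-Hochberg over all 11962 genes. For single genes an exact two-sided permutation test exchanged genotype among diabetic and among control mice separately (1400 assignments). The scripts were tested on simulated data. Tables were handled with Python 3.11.15 and pandas 2.3.3.

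Named genes were *Cfb* and genes the study names, the 12 smallest p in each direction with a difference over 1, the 6 largest differences in each direction at a mean FPKM of at least 50, the 10 largest similar rises and falls, the 4 smallest p in each list and list members that define it. *Isg15*, *Ifit1*, *Cxcl10*, *Hspa1b* and *Fos* were named as list members. Symbols that are model numbers were counted only. Members, lists and motifs were chosen with earlier results of these data known. Alternatives covered the filter, the added value, scaling, the variance model, the replicate block and each mouse left out. Results for some items are not reported here.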

Additional observations from a re-analysis of the deposited data

Results flagged for a closer look

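Among 146 groups of 4 diabetic mice (73 named genes in each genotype), 5 held 1 mouse far from the other 3 by Dixon's test, which chance does in about 1 in 20 groups. *Cfb* was 1.13 FPKM in *Cfb*-/- diabetic mouse 3 against 1.38 to 1.43 in the others. *Azgp1* was 41.5 FPKM in *Cfb*-/- diabetic mouse 4 against 31.5 to 32.9. *Rasd1* was 10.5 FPKM in *Cfb*-/- diabetic mouse 1 against 4.50 to 5.04. *Krt19* was 5.84 FPKM in WT diabetic mouse 1 against 14.1 to 15.1. *Serpinf2* was 38.5 FPKM in WT diabetic mouse 4 against 54.1 to 55.5.

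In 11 of the same 73 genes every WT diabetic mouse lay on 1 side of the WT control mean and every *Cfb*-/- diabetic mouse on the other side of its own, while no difference passed the limma adjustment. Many of the 73 were picked on this same contrast, so the 11 are a description. The share over all tested genes was not computed. The difference (log2, *Cfb*-/- minus WT) was 1.23 for *Klhdc9*, 1.58 for *C1qtnf2*, 0.80 for *C2*, 0.75 for *Tusc1* and 0.60 for *Wash1*. It was -2.38 for *Clec3b*, -1.25 for *Dio1*, -1.09 for *Gda*, -1.27 for *Pck1* and -4.66 for *Adipoq*. For *Cfd* the fitted value was -8.36, which depends on the added 0.1 because a group was listed at 0. It is not to be read as a fold. Across the alternatives of processing it ran from -12.0 to -4.375, and the value for *Adipoq* from -7.45 to -1.62. Both genes passed the filter only through the mice in which they were high. The sizes of these 2 differences therefore depend on the processing and support nothing.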

How the results depend on the processing

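Of the 129 genes with a difference over 1, the number was 264 with FPKM of at least 0.1, 262 with no filter and 56 with log2(FPKM + 1). The 655 became 1023 with no filter. Similar responses numbered 875 at a 1.5-fold margin. Without a filter 3 genes differed by genotype in control mice and 2 in diabetic mice, and with log2(FPKM + 0.01) 3 did in control mice and 1 difference in response (*Defb36*) passed the adjustment. *Defb36* was at or near 0 FPKM in all control mice, so this depends on the added value. With each mouse left out in turn, adjusted differences numbered 0 to 4 (*Cfd*, *Ces1g*, *Hspa1b* and *Hspa1a* without *Cfb*-/- control mouse 1, and *Pet117* without *Cfb*-/- diabetic mouse 2). *Cfd* passed the filter only through the mice in which it was high, so its place in that count is no support. The runs with a mouse left out gave 336 to 2386 differences at unadjusted p under 0.05, 83 to 258 of them over 1, 1601 to 2241 similar responses, 1 to 2107 genes by genotype in control and 1 to 2 in diabetic mice. The highest of these came without WT control mouse 1, except the similar responses, which were lowest (1601) without *Cfb*-/- control mouse 2, and the 2 genes in diabetic mice, found without *Cfb*-/- control mouse 1, 2 or 3. *Cfb*-/- control mouse 2 left 1136 and 248 differences, and *Cfb*-/- control mouse 3 left 336 and 83. Without *Cfb*-/- diabetic mouse 2, WT diabetic mouse 2 or WT control mouse 3, there were 427, 413 and 394. The cause was not tested. With replicate number as a block, 543 differences at unadjusted p under 0.05, 0 adjusted differences and 2068 similar responses were found. The numbers did not pair the mice, since 5 of 19 pairs correlated over 0.1 (range -0.50 to 0.32). For the 70 named genes with a difference at unadjusted p under 0.05, no alternative changed its direction, 1392 alternative values stayed past that threshold and 204 did not, among them 15 for *Psmb9*, 8 for *C4b* and for *Jchain*, 7 for *Slc14a1*, 6 for *Havcr1* and for *Pck1* and 4 for *Slc5a3*. For the 20 largest similar responses, 368 alternative values met the criterion and 92 did not, among them 18 for *Siglec1*, 16 for *Oasl2*, 13 for *Ifi204* and 11 for *Grem1*. With 3 or 4 mice per group the median standard error of a difference was 0.23.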
